A study of Mus musculus with 33 samples.

Results

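Cirbp and Rbm3 encode the cold-inducible RNA-binding proteins CIRBP and RBM3, a pair of small paralogues, and their transcript levels were followed in mouse frontal cortex across sleep, sleep deprivation, recovery sleep and loss of Mef2c. The members were the rows with these symbols, 2 of the 21565 genes in the table, and both were counted in all 33 libraries. Each protein has an RNA recognition motif followed by a glycine-rich tail with arginine-glycine pairs. Mild cooling raises both transcripts in many tissues and strong heat lowers them, the reverse of the heat-shock chaperones. In brain, RBM3 is known for maintaining protein synthesis and synapses in the cold, and CIRBP for binding transcripts of the circadian clock such as Clock.

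All mice were adult males on a C57BL/6J background, and the tissue was taken at the same time of day in all groups. Wild-type mice (WT) slept ad libitum (control sleep, CS, n = 6), were kept awake for 6 hr (sleep deprivation, SD, n = 7), or, per the methods, were kept awake for only 4 hr and then slept for 2 hr (recovery sleep, RS, n = 7). Mice with both Mef2c alleles floxed and no Cre (Mef2c f/f) were studied in CS (n = 4) and SD (n = 3). The conditional knockout (Mef2c-cKO, n = 3 in CS and n = 3 in SD) carried the same floxed alleles with Camk2a-Cre, which is active in excitatory forebrain neurons and not in glia. Some cKO mice also had recombination in the germline according to the methods. Cre removes a single exon, so the gene-level count of Mef2c does not check the knockout. Mean Mef2c levels were 1147 ± 67.3 (SD, n = 4) in Mef2c f/f CS and 1431 ± 415 (n = 3) in cKO CS. In the deprived groups they were 1263 ± 136 (n = 3) and 1311 ± 192 (n = 3).

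Cirbp lies on chromosome 10 (mm10, chr10:80165985-80172786, plus strand), with 7 annotated transcripts, of which 3 have a coding sequence. Rbm3 lies on the X chromosome (chrX:8138975-8145880, minus strand), with 11 transcripts, 8 of them coding. The coding sequences of Cirbp-202 and Rbm3-204 encode 172 and 154 residues, and 110 of 150 aligned residues (73.3%) were identical. Glycine made up 20.3% of the residues of CIRBP and 20.1% of those of RBM3, with 9 and 5 arginine-glycine pairs. The bases that encode the conserved RNA-contacting core of the recognition motif (RNP1, residues 47 to 54 in both) are shown because they give the degree of likeness between the paralogues. Capitals mark the 6 of 24 bases that differ.
Cirbp RNP1: cgAggCtttggGttTGtcaccttT
Rbm3 RNP1: cgGggTtttggCttCAtcaccttC

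Only uniquely mapped reads had been counted, so stretches that the paralogues share base for base may be undercounted. Rbm3 shares 452 bp with the antisense gene Rbm3os, which was not analysed here. Whether the counting used strand is not given in the sources used here, so reads in that stretch could belong to either gene.

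The start region of Cirbp is shown because it holds the octamer TCCCCGCC, known as the mild-cold response element, in capitals. The window is chr10:80167589-80167777 on the plus strand (RefSeq, GRCm38.p6). It lies inside the annotated gene span, upstream of the exons of the annotated transcripts apart from a transcript that starts earlier.
Cirbp promoter: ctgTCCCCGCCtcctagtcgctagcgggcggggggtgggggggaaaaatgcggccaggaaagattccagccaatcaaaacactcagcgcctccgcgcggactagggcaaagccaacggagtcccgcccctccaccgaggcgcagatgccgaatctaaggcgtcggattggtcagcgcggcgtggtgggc

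The octamer begins 247 bases before a RefSeq start of Cirbp. On either strand, 4.642% of 32851 RefSeq windows, taken over the 250 bases before each start, hold the octamer. The GC box GGGCGG occurred 3 times in the 250 bases before that start, on both strands together, against a share of 32.742% of windows with at least 1 copy, and the octamer and the GC box do not overlap there. The cyclic AMP element TGACGTCA, the E-box CACGTG and GAANNTTC, the repeated unit of heat-shock elements, were not found in either of the 2 Cirbp windows, and 1.546%, 6.021% and 6.694% of all windows hold them. The promoter of Rbm3 was not analysed here.

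Total reads per library ranged from 18935045 to 249046089, recovered from the deposited CPM (read counts scaled to a common library total). Values below are rescaled CPM, that is CPM divided by a size factor of the library. Cirbp was covered by 996 to 7421 reads and Rbm3 by 1151 to 11567 reads per library, so counting error was at most 3.17% and 2.95% of a value and was small beside the spread between libraries. The mean level over all libraries was 41.5 rescaled CPM for Cirbp and 51.2 for Rbm3. The listed genes summed to between 925580 and 985958 CPM in WT libraries and to 1000000 in the Mef2c lines. A level set across the WT and Mef2c mice carries this difference, whose origin is not given. Markers of cortical excitatory neurons, interneurons and glia were present in all libraries, and no listed marker of any cell type was at 0 in any library. Cirbp and Rbm3 are expressed in many cell types, and in tissue RNA fewer cells of a type and less RNA per cell cannot be told apart.

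Of the 7 groups, WT CS had the lowest mean level of Cirbp and, in rescaled CPM, the highest of Rbm3, which on CPM as deposited was higher in 3 groups. Cirbp in the 6 WT CS libraries ran from 17.3 to 39.4 rescaled CPM with a median of 32.3 and a mean of 30.9 ± 8.62 (SD). Rbm3 in the same libraries ran from 52.0 to 75.5 with a median of 60.8 and a mean of 61.9 ± 9.04. Replicate 2 had the lowest Cirbp of the 6, and replicate 1 the highest Rbm3. The plot of levels by library shows how the groups lay.

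**Figure D1:**
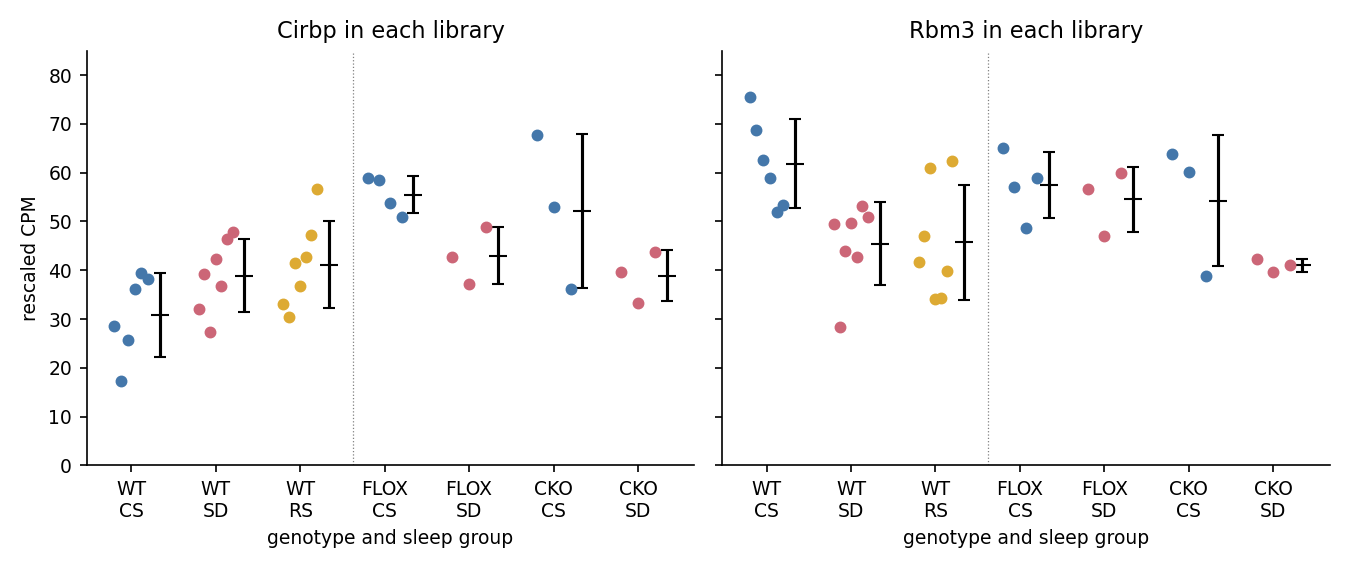
Cirbp (left) and Rbm3 (right) in rescaled CPM for each of 33 libraries in 7 groups; points are libraries in order of replicate number, black bars are the group mean ± SD, and the dotted line separates WT from the Mef2c lines. WT CS had the lowest mean of Cirbp (30.9) and on this scale the highest mean of Rbm3 (61.9); on CPM as deposited 3 groups had a higher mean of Rbm3.

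After 6 hr of sleep deprivation, Rbm3 fell in WT cortex while Cirbp had a higher mean that did not pass the test. Rbm3 in the 7 WT SD libraries ran from 28.3 to 53.1 rescaled CPM with a median of 49.5 and a mean of 45.5 ± 8.43. WT CS and SD overlapped narrowly, since only in 1 of 42 pairs of a CS and an SD library was the SD value higher. The log2 fold change of Rbm3 was -0.45 ± 0.14 (SE, adjusted p = 0.0162, limma with Benjamini-Hochberg adjustment over all genes), with a 95% interval of -0.75 to -0.16. Of 12913 genes tested in this comparison, 45.1% were called (adjusted p of at most 0.05 and a log2 change of at least 0.3 in size), so a call of 1 of the 2 genes is near the background. The fold changes of 12.8% of genes were lower than that of Rbm3. The call ended with the trend on GC content and transcript length removed (-0.16, adjusted p = 0.381, limma), where 2514 of 12263 genes were called. It also ended on CPM as deposited (-0.18, adjusted p = 0.241), where the median of all genes moved from 0.04 to 0.30 and Cirbp was called in place of Rbm3 (0.63, adjusted p = 0.0274). On that scale 6907 of 12913 genes were called.

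Cirbp in WT SD ran from 27.3 to 47.8 rescaled CPM with a median of 39.2 and a mean of 38.9 ± 7.47. The groups overlapped over most of their range, and the SD value was higher in 32 of 42 pairs of libraries. The log2 fold change was 0.36 ± 0.18 (SE, adjusted p = 0.114, limma), with an interval of -0.04 to 0.75. An exact two-sided permutation test on the single gene gave p = 0.108 for Cirbp and p = 0.00233 for Rbm3 (6 against 7 libraries).

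Means in RS were close to those in SD, and these groups differed in the length of deprivation as well as in recovery sleep. Rbm3 in the 7 WT RS libraries ran from 34.0 to 62.4 rescaled CPM with a median of 41.7 and a mean of 45.7 ± 11.7. Against CS its log2 fold change was -0.46 ± 0.15 (SE, adjusted p = 0.0492, limma), at the edge of the threshold, in a comparison where 17.5% of 12752 genes were called. The RS value was higher than the CS value in 6 of 42 pairs of libraries. This call was lost without any 1 of WT CS replicates 1, 2, 3 and 4 or WT RS replicates 1, 3, 4, 5, 6 and 12, with log2 fold changes of -0.54 to -0.39 and adjusted p of 0.0513 to 0.101. It was also lost on CPM as deposited (-0.27, adjusted p = 0.162, limma) and in edgeR (-0.43, adjusted p = 0.062).

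Cirbp in WT RS ran from 30.4 to 56.6 rescaled CPM with a median of 41.4 and a mean of 41.2 ± 8.94. The RS libraries lay mostly above the CS libraries, being higher in 34 of 42 pairs. The log2 fold change against CS was 0.43 ± 0.19 (SE, adjusted p = 0.0901, limma; exact permutation p = 0.0559). Between SD and RS, where 0.0232% of 12921 genes were called, the log2 difference was 0.08 (95% interval -0.23 to 0.38) for Cirbp and -0.005 (-0.34 to 0.33) for Rbm3, and neither passed the test.

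Because the genes had log2 fold changes of opposite sign, the ratio of Rbm3 to Cirbp within a library, which does not depend on library scaling, shifted between the WT groups. The log2 ratio of Rbm3 to Cirbp in WT CS replicates 1 to 6 was 1.39, 1.96, 1.27, 0.70, 0.40 and 0.48. Replicates 1, 2 and 3 thus lay well above the rest of their own group. In WT SD the log2 ratio ran from -0.46 to 0.68 with a mean of 0.22 ± 0.38, and in WT RS from -0.32 to 0.62 with a mean of 0.14 ± 0.38. The mean of WT CS, 1.03 ± 0.61, is a ratio of 2.04 in CPM, against 1.17 in SD and 1.10 in RS. These ratios are not per length, since the coding transcripts are 1321 bp for Cirbp and 1152 bp for Rbm3 and the longest of Rbm3 is 2792 bp, so only their changes are read.

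The log2 ratio fell by 0.81 from CS to SD (exact two-sided permutation p = 0.0105, adjusted p = 0.0367 over 7 comparisons) and by 0.89 from CS to RS (exact permutation p = 0.00816, adjusted p = 0.0367). SD and RS differed by -0.08 (adjusted p = 0.959, exact permutation test). Both changes from CS lost their call without WT CS replicate 1, 2 or 3. The change to SD also lost it without WT SD replicate 2, 4, 6, 8 or 9, and the change to RS without WT RS replicate 1, 4, 5, 6 or 12. The values without a library were -0.94 to -0.62 for SD and -1.02 to -0.71 for RS, and the adjusted p of those that lost the call was 0.053 to 0.0795.

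**Figure D2:**
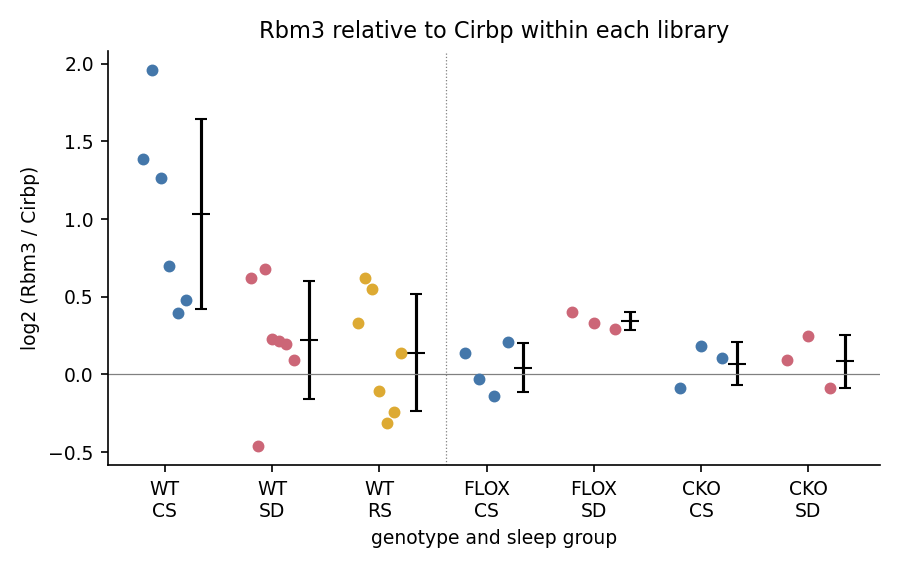
Log2 of the ratio of Rbm3 to Cirbp within each library, by group; points are libraries, black bars are the group mean ± SD, and the horizontal line marks equal CPM. WT CS libraries ran from 0.40 to 1.96, and libraries of all other groups ran from -0.46 to 0.68.

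The WT libraries also differed in how levels followed base composition, and the genes differ in it. The longest annotated transcript has a GC content of 53.67% for Cirbp, higher than 72.7% of 19230 genes, and of 41.51% for Rbm3, higher than 15.4%. The slope on GC content of a library's log2 levels, taken as deviations from each gene's mean over the 33 libraries, had a mean of -0.30 per 10 points in WT CS, from -0.88 in replicate 2 to -0.05 in replicate 6. It had a mean of 0.18 in WT SD, from -0.001 to 0.33, and of 0.09 in WT RS, from -0.15 to 0.36. In the Mef2c lines the slope stayed between -0.17 and 0.20. Across the genes tested, the log2 fold change from WT CS to SD rose with GC content (Spearman rho = 0.72 over 12263 genes, which are not independent replicates). The rho was 0.71 for CS to RS, -0.30 for the deprivation response of Mef2c f/f and -0.02 for that of cKO.

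With the trend on GC content and transcript length removed from each library, neither gene was called in WT. That fit called 2514 of 12263 genes from CS to SD and 621 of 12102 from CS to RS. The log2 fold change from CS to SD was then -0.02 for Cirbp (adjusted p = 0.929, limma) and -0.16 for Rbm3 (adjusted p = 0.381), and their difference, the change of the log2 ratio, was -0.14. From CS to RS it was 0.13 for Cirbp (adjusted p = 0.518) and -0.24 for Rbm3 (adjusted p = 0.237), with a difference of -0.36.

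Within the WT groups the ratio followed the slope. In WT CS Pearson's r between the slope and the log2 ratio was -0.94 (exact permutation p = 0.0125, adjusted p = 0.029 over 9 relations, n = 6) and Spearman's rho was -0.77 (exact p = 0.103, adjusted p = 0.185). Without the 2 libraries farthest from the median slope r was -0.92. In WT RS r was -0.89 (exact permutation p = 0.0129, adjusted p = 0.029, n = 7), rho was -0.89 (exact p = 0.0123, adjusted p = 0.0554), and r was -0.98 without the farthest 2. In WT SD r was -0.71 (exact permutation p = 0.0694, adjusted p = 0.125, n = 7), rho was -0.82 (exact p = 0.0341, adjusted p = 0.102), and r was -0.10 without the farthest 2, so the relation rested on those libraries.

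The genes were also set against the slope on their own. The r of Cirbp with the slope was 0.98 in WT CS (exact permutation p = 0.00972, adjusted p = 0.029, n = 6; rho = 0.83, exact p = 0.0583, adjusted p = 0.131) and 0.95 in WT SD (exact permutation p = 0.00198, adjusted p = 0.0179, n = 7; rho = 0.93, exact p = 0.00675, adjusted p = 0.0554). Without the farthest 2 libraries these were 0.95 and 0.72. In WT RS it was 0.56 (exact permutation p = 0.19, adjusted p = 0.245, n = 7; rho = 0.64, exact p = 0.139, adjusted p = 0.208), and 0.56 without the farthest 2. The r of Rbm3 with the slope ran from -0.66 to 0.02 in these groups, with an adjusted p of 0.227 or more (exact permutation tests), and rho ran from -0.66 to 0.54.

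**Figure D3:**
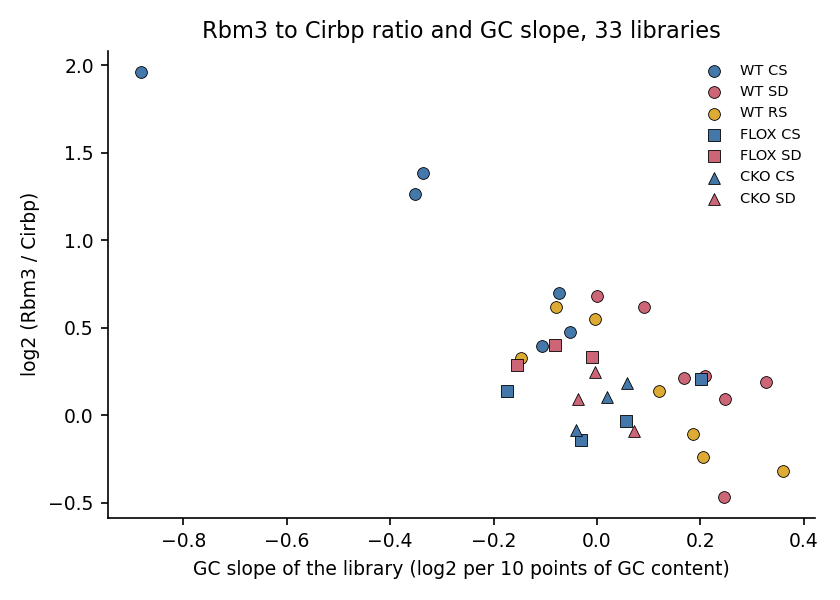
Log2 ratio of Rbm3 to Cirbp (vertical) against the slope of log2 level on GC content per 10 points (horizontal) in 33 libraries; circles are WT, squares Mef2c f/f and triangles Mef2c-cKO, in blue for CS, red for SD and yellow for RS. The 3 WT CS libraries with ratios of 1.27 or more also had the 3 lowest slopes, -0.88 to -0.34.

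WT library numbers 1 to 4 and those above 4 gave the same signs with unequal sizes, though no label calls this split a batch. The split was added after the data were seen, and numbers up to 4 hold WT CS replicates 1, 2 and 3, whose ratios stood apart. Among numbers up to 4 (4 against 4), the log2 change from CS to SD was 0.41 for Cirbp (exact permutation p = 0.171), -0.66 for Rbm3 (exact p = 0.0286, the smallest this size allows) and -1.06 for the log2 ratio (exact p = 0.0286). Among numbers above 4 (2 against 3, where no p can go below 0.1) the changes were 0.16, -0.11 and -0.27. From CS to RS they were 0.43, -0.55 and -0.98 up to number 4 and 0.32, -0.26 and -0.58 above it. With the split as a term in the limma fit, Rbm3 kept its calls in SD (log2 fold change -0.45, adjusted p = 0.018) and RS (-0.44, adjusted p = 0.0381), and Cirbp was called in RS (0.39, adjusted p = 0.0481) and not in SD (0.32, adjusted p = 0.0955). The term also moved the genes called from 5826 to 5906 of 12913 in SD and from 2232 to 3598 of 12752 in RS.

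Markers of other compartments moved with the same WT contrast, and their part in these results was not tested. Their counts stand beside the 45.1% of all genes called from CS to SD. Of 5 meningeal fibroblast markers 3 rose from CS to SD, and their summed level went from 10.3 to 43.3 rescaled CPM in WT CS and from 49.9 to 83.4 in WT SD. Of 4 red blood cell markers 4 rose, with sums of 25.6 to 109 in CS and 89.1 to 263 in SD. Of 5 excitatory neuron markers 1 fell, with sums of 741 to 1020 and 823 to 999. Of 5 inhibitory neuron markers 2 rose, with sums of 453 to 651 and 512 to 735, and of 5 astrocyte markers 2 rose, with sums of 479 to 1042 and 581 to 808. Of 3 striatal neuron markers tested, from a neighbouring region, 2 rose, with sums of 79.0 to 173 and 97.0 to 241. Of 4 pericyte and smooth muscle markers 2 rose and 1 fell, and of 5 markers each of oligodendrocytes, microglia and endothelial cells 1 rose and 1 fell.

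From WT CS to RS, where 17.5% of genes were called, 2 of 4 red blood cell markers rose, with sums of 78.4 to 126 rescaled CPM in RS. Of 5 inhibitory neuron markers 2 rose (557 to 841 in RS), as did 2 of 3 striatal markers (139 to 237) and 1 of 5 astrocyte markers, and 1 of 5 excitatory neuron markers fell.

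In Mef2c f/f mice Cirbp had a lower mean after deprivation, and the change did not pass the test over all genes. Cirbp was 58.9, 58.4, 53.7 and 51.0 rescaled CPM in the 4 CS libraries (55.5 ± 3.82) and 42.7, 37.2 and 48.9 in the 3 SD libraries (43.0 ± 5.86). Each SD value lay below each CS value, and the share of all genes separated in this way was not counted. The log2 fold change of Cirbp was -0.37 ± 0.10 (SE, unadjusted p = 0.00458, adjusted p = 0.145, limma; 95% interval -0.60 to -0.14), so it was not called among 12410 genes, of which 0.0403% were. An unadjusted p of at most 0.05 was reached by 2111 of these genes (limma). On the recovered reads Cirbp was called by DESeq2 (-0.37, adjusted p = 0.0414) and not by edgeR (-0.37, adjusted p = 0.151). With all 33 libraries sharing one estimate of the spread the adjusted p was 0.653 (limma). The exact permutation test on the single gene gave an unadjusted p of 0.0286, the smallest it can give with 4 against 3. With the GC and length trend removed the log2 fold change was -0.35 (adjusted p = 0.146). Between the same groups summed oligodendrocyte markers were 1510 to 1823 rescaled CPM in CS and 2009 to 2327 in SD, and summed red blood cell markers 108 to 165 and 50.5 to 94.2. Neither pair of ranges overlapped, while the ranges of every other marker list did. Limma called 0 of 5 oligodendrocyte and 0 of 4 red blood cell markers between these groups. The part of these markers in the level of Cirbp was not tested.

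Rbm3 in Mef2c f/f was 65.0, 57.1, 48.6 and 58.9 in CS (57.4 ± 6.76) and 56.7, 47.0 and 59.9 in SD (54.5 ± 6.72). The groups overlapped, with a log2 fold change of -0.07 (95% interval -0.33 to 0.18, adjusted p = 0.766, limma). The log2 ratio of Rbm3 to Cirbp was 0.14, -0.03, -0.14 and 0.21 in CS and 0.40, 0.33 and 0.29 in SD. Those groups did not overlap, and the difference of 0.30 had an exact permutation p of 0.0571 (adjusted p = 0.133).

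In Mef2c-cKO mice both genes had lower means after deprivation, and neither change passed the test. Cirbp was 67.6, 53.0 and 36.1 in CS (52.2 ± 15.8) and 39.6, 33.3 and 43.8 in SD (38.9 ± 5.26). Rbm3 was 63.7, 60.2 and 38.9 in CS (54.3 ± 13.4) and 42.3, 39.6 and 41.1 in SD (41.0 ± 1.32). In CS the lowest value of each gene was that of replicate 8. That library had summed astrocyte markers of 2340 rescaled CPM, against 715 and 756 in the other cKO CS libraries, and summed microglial markers of 419 against 159 and 189. The part of this in the levels was not tested.

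From CS to SD in cKO the log2 fold changes were -0.38 (95% interval -0.91 to 0.14) for Cirbp and -0.37 (-0.79 to 0.06) for Rbm3. Both had an adjusted p of 0.998 (limma), where 0.0234% of 12810 genes were called. Without CS replicate 8 they were -0.62 (adjusted p = 0.939) and -0.59 (adjusted p = 0.248). The log2 ratio of Rbm3 to Cirbp stayed between -0.09 and 0.25 in all 6 cKO libraries and differed by 0.01 between the sleep groups (exact permutation p = 1).

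**Figure D4:**
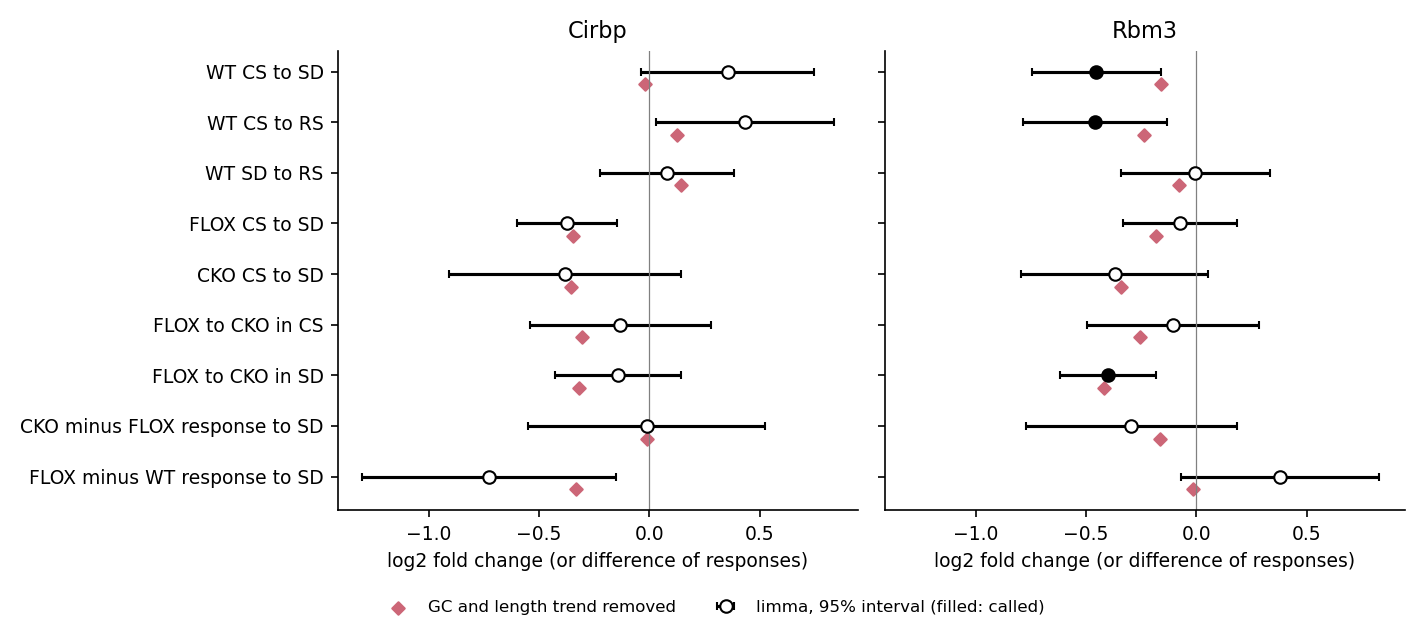
Log2 fold changes of Cirbp (left) and Rbm3 (right) in 9 comparisons, where FLOX stands for Mef2c f/f and CKO for Mef2c-cKO; circles are limma estimates with unadjusted 95% intervals, filled where called, and red diamonds are the values with the trend on GC content and transcript length removed. In WT CS to SD the value of Cirbp went from 0.36 to -0.02 and that of Rbm3 from -0.45 to -0.16, and in FLOX CS to SD that of Cirbp went from -0.37 to -0.35.

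Rbm3 was lower in Mef2c-cKO than in Mef2c f/f mice after deprivation. Between the deprived groups of Mef2c f/f and cKO the log2 difference of Rbm3 was -0.40 ± 0.09 (SE, adjusted p = 0.0244, limma; 95% interval -0.62 to -0.18), in a comparison where 15.1% of 12774 genes were called. The 3 cKO values (39.6 to 42.3) lay below the 3 Mef2c f/f values (47.0 to 59.9). The share of all genes separated in this way was not counted. An unadjusted p of at most 0.05 was reached by 4357 of the 12774 genes (limma). The log2 difference of Rbm3 was -0.42 (adjusted p = 0.00927) with the GC and length trend removed. With 3 against 3 the exact permutation test cannot go below 0.1, which is the p it gave. The call was lost without cKO SD replicate 5 (log2 difference -0.42, adjusted p = 0.0523) or 7 (-0.40, adjusted p = 0.0567) and without Mef2c f/f SD replicate 1 (-0.37, adjusted p = 0.102) or 3 (-0.33, adjusted p = 0.0918). It was also lost when all 33 libraries shared one estimate of the spread (adjusted p = 0.345).

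In the same deprived groups Cirbp differed by -0.14 (95% interval -0.43 to 0.14, adjusted p = 0.457, limma), and by -0.32 (adjusted p = 0.144) with the GC and length trend removed. Beside these values, summed microglial markers were 144 to 151 rescaled CPM in Mef2c f/f SD and 181 to 196 in cKO SD, with 4 of 5 markers higher. Summed astrocyte markers were 594 to 646 and 780 to 963, with 2 of 5 higher. Summed excitatory neuron markers were 914 to 955 and 814 to 930, with 2 of 5 lower. Summed inhibitory neuron markers were 494 to 574 and 671 to 791, with 3 of 5 higher and 1 lower. Summed endothelial markers had medians of 81.3 and 91.3, with 2 of 5 higher. Of the other lists, 1 of 4 pericyte and smooth muscle markers was higher and 1 of 5 oligodendrocyte markers lower. The part of these markers in the difference of Rbm3 was not tested.

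Under control sleep the genotypes were not told apart. The log2 difference from Mef2c f/f to cKO was -0.13 (95% interval -0.54 to 0.28, adjusted p = 0.672, limma) for Cirbp and -0.11 (-0.49 to 0.28, adjusted p = 0.726) for Rbm3, with 7.67% of 12681 genes called. Both turned to 0.11 and 0.12 without cKO CS replicate 8. They were -0.30 (adjusted p = 0.342) and -0.25 (adjusted p = 0.351) with the GC and length trend removed, and on CPM as deposited -0.03 and -0.002. The response to deprivation differed between cKO and Mef2c f/f by -0.01 (95% interval -0.55 to 0.53) for Cirbp and by -0.30 (-0.77 to 0.18) for Rbm3, so the lower Rbm3 of deprived cKO mice was not shown to be a different response. In that interaction 0.00778% of 12860 genes were called at an adjusted p of at most 0.05.

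The fitted change of Cirbp from CS to SD was 0.36 on the log2 scale in WT and -0.37 in Mef2c f/f mice, neither of them called. The values were -0.02 (adjusted p = 0.929) and -0.35 (adjusted p = 0.146, limma) with the GC and length trend removed, again not called. The difference of the log2 responses, Mef2c f/f minus WT, was -0.73 (95% interval -1.30 to -0.15) with an unadjusted p of 0.0157 and an adjusted p of 0.0678 (limma), while 15.1% of 13106 genes were called. It was called without WT CS replicate 5 (-0.81, adjusted p = 0.0404) or 6 (-0.80, adjusted p = 0.0427) and without WT SD replicate 3 (-0.81, adjusted p = 0.0402). For Rbm3 the difference was 0.38 (95% interval -0.07 to 0.83, adjusted p = 0.184). With the GC and length trend removed these were -0.33 (adjusted p = 0.37) and -0.01 (adjusted p = 0.976). For the log2 ratio the responses differed by 1.11 (exact permutation of genotype labels within each sleep state, p = 0.0181, adjusted p = 0.109 over 6 tests). The WT and Mef2c f/f mice also differ in breeding and in the CPM sums of their listed genes, which cannot be told apart from genotype.

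Ordered by group mean, Cirbp was highest in Mef2c f/f CS (55.5 rescaled CPM) and then in cKO CS (52.2), Mef2c f/f SD (43.0), WT RS (41.2), cKO SD (38.9), WT SD (38.9) and WT CS (30.9). Rbm3 was highest in WT CS (61.9) and then in Mef2c f/f CS (57.4), Mef2c f/f SD (54.5), cKO CS (54.3), WT RS (45.7), WT SD (45.5) and cKO SD (41.0). WT CS thus stood at opposite ends of the orders on rescaled values. On CPM as deposited it was again the lowest for Cirbp (26.9), but for Rbm3 (52.6) it lay below cKO CS (60.6), Mef2c f/f CS (59.7) and Mef2c f/f SD (56.9). No neighbours in either order of rescaled values differed beyond their spread (exact permutation tests of 12 pairs, unadjusted p of 0.108 or more, adjusted p = 1), and 3 against 3 cannot go below 0.1.

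No shared variation of Cirbp and Rbm3 within groups passed the test. Across all 33 libraries Pearson's r between the log2 levels of Cirbp and Rbm3 was 0.07, and for deviations from group means it was 0.19, both given as descriptions. Within WT CS r was -0.71 (exact permutation p = 0.11, adjusted p = 0.329 over 3 groups, n = 6) with a rho of -0.83 (exact p = 0.0583, adjusted p = 0.175). Without the 2 libraries farthest from the median of Cirbp it was -0.997 on rescaled values. In WT SD r was 0.20 (exact permutation p = 0.689, adjusted p = 0.689, n = 7) and rho 0.64 (exact p = 0.139, adjusted p = 0.208), with an r of 0.64 without the farthest 2. In WT RS r was 0.36 (exact permutation p = 0.429, adjusted p = 0.643, n = 7) and rho 0.18 (exact p = 0.713, adjusted p = 0.713), with an r of 0.08 without the farthest 2. On CPM as deposited r was -0.11 in WT CS, and -0.62 there without the farthest 2. It was 0.28 in WT SD and 0.51 in WT RS on that scale, and no group had an adjusted p below 0.72 (exact permutation tests).

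The genes most like Cirbp over all 33 libraries, by Pearson's r of log2 levels among 11569 genes, were Sec14l1 (0.85), Bcl7a (0.84), Mllt6 (0.83), Cacng7 (0.83) and Miip (0.82). By deviations from group means they were Pacsin3 (0.89), Bcl7a (0.88), Mllt6 (0.87), Cbx8 (0.86) and Cygb (0.85). These 8 genes have longest transcripts with GC contents of 51.46% to 58.82%. The genes most like Rbm3 were Pms2 (0.79), Gosr1 (0.78), Glyr1 (0.75), Kdm2a (0.75) and Hmgxb4 (0.74) by level, and Zfp46 (0.73), Pms2 (0.72), Aste1 (0.71), Pigl (0.70) and Rbmx (0.70) by deviations from group means. Their GC contents ran from 43.98% to 51.67%. Rbmx is another RNA-binding protein of the same family. These values are descriptions, and the points share library depth and base composition.

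Of the nearest genes on chromosome 10, Midn (log2 fold change 0.68, adjusted p = 0.0218) and Atp5d (0.91, adjusted p = 0.00609, limma) rose in WT from CS to SD, and Efna2 had 0.30 (adjusted p = 0.0989). In this comparison 45.1% of all genes were called, and the GC and length trend was not removed from these values. Midn encodes a nuclear protein that targets other proteins to the proteasome, Atp5d a subunit of the mitochondrial ATP synthase and Efna2 an ephrin ligand. Beside Rbm3 on the X chromosome, Wdr13 had 0.19 (adjusted p = 0.0456, below the required size) and Tbc1d25 had 0.07 (adjusted p = 0.586). In Mef2c f/f and cKO limma called none of these 5 genes between CS and SD, with 1 (Midn, 0.47, unadjusted p = 0.00366) and 0 at an unadjusted p under 0.05. Among all genes 2111 of 12410 and 391 of 12810 had an unadjusted p of at most 0.05 (limma).

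Heat-inducible chaperones, the genes with the opposite temperature response, were led by Hspa1b in WT. Of 16 tested, 6 rose and 2 fell from WT CS to SD, which is near the 45.1% of all genes called. The median of their log2 fold changes was 0.08, against 0.04 over all genes. Hspa1b, an inducible heat-shock chaperone, had a median of 1.40 rescaled CPM in WT CS (0.765 to 3.73) and 5.87 in WT SD (3.25 to 9.62), a log2 fold change of 1.75 (adjusted p = 9.56e-04, limma). Its near-identical copy Hspa1a rose by 0.94 (adjusted p = 0.00301), and reads of the copies may be split between them. Hspb1, a small heat-shock protein, rose by 0.95 (adjusted p = 0.0025).

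The co-chaperones Dnajb1 (log2 fold change 0.50), Fkbp4 (0.48) and Hspe1 (0.43) rose, and Hspa4l (-0.44) and Chordc1 (-0.31) fell, with adjusted p of 0.00785 to 0.0494 (limma). Hsf1, the heat-shock transcription factor, had 0.28 (adjusted p = 0.0292), just under the required size. With the GC and length trend removed, 3 of the 16 rose and 1 fell. On CPM as deposited 8 rose and 0 fell, and 6 rose and 0 fell after quantile normalization.

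Hspa1b and Hspa1a were also higher in WT RS than in CS, with log2 fold changes of 1.67 (adjusted p = 0.0383) and 0.91 (adjusted p = 0.0422, limma). Of 16 chaperones 4 rose and 0 fell (17.5% of all genes were called). These counts were 0 and 0 with the trend removed, where 621 of 12102 genes were called. In Mef2c f/f and cKO limma called 0 of 16 between CS and SD, edgeR 0 and 0 and DESeq2 1 and 0. In limma 5 and 1 had an unadjusted p under 0.05, against 2111 of 12410 and 391 of 12810 among all genes. The chaperones had median log2 fold changes of 0.13 and 0.13, against 0.00 and -0.01 over all genes. The responses of Hspa1b and Hspa1a, not of the list as a whole, were lower in Mef2c f/f than in WT. The log2 differences were -1.86 for Hspa1b (adjusted p = 0.024, limma interaction) and -1.24 for Hspa1a (adjusted p = 0.043), while 15.1% of 13106 genes were called. No chaperone was called in this interaction with the GC and length trend removed. From Mef2c f/f to cKO after deprivation Fkbp4 was higher by 0.40 (adjusted p = 0.0193).

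Among 12 regulators and partners of the pair, 1 rose and 5 fell from WT CS to SD, near the 45.1% of all genes called. The median of their log2 fold changes was -0.30, against 0.04 over all genes. Prmt1, which methylates arginines in arginine-glycine regions, had means of 13.8 ± 2.49 rescaled CPM in WT CS and 22.6 ± 4.32 in WT SD (log2 fold change 0.69, adjusted p = 0.00298, limma). Those that fell were the transcription factor gene Creb1 (-0.39, adjusted p = 0.0315), the kinase genes Gsk3b (-0.35, adjusted p = 0.0115) and Clk4 (-0.34, adjusted p = 0.0174), the import receptor gene Tnpo1 (-0.30, adjusted p = 0.00803) and Rtn3 (-0.34, adjusted p = 0.0116), whose transcript RBM3 binds in neurons. On CPM as deposited 2 rose and 0 fell. With the GC and length trend removed 1 rose and 0 fell, and the median was 0.06. Over all genes 6907 of 12913 were called on CPM as deposited and 2514 of 12263 with the trend removed. In WT RS Prmt1 alone of the 12 was called (0.61, adjusted p = 0.0429). In Mef2c f/f and cKO limma, edgeR and DESeq2 called 0 of 12 between CS and SD. In limma 2 and 0 had an unadjusted p under 0.05, against 2111 of 12410 and 391 of 12810 among all genes. Prmt1 was higher in deprived cKO than in deprived Mef2c f/f mice (0.35, adjusted p = 0.0422, limma).

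Of 12 other proteins with RNA recognition motifs and glycine-rich regions, 1 rose and 1 fell from WT CS to SD, against 45.1% of all genes called, and the median log2 fold change was -0.11. Hnrnpa0 rose by 0.47 (adjusted p = 0.0287, limma) and Taf15 fell by 0.44 (adjusted p = 0.00527), with means of 66.5 ± 10.7 rescaled CPM in WT CS and 48.6 ± 5.57 in WT SD for Taf15. Taf15 was also lower in WT RS than in CS (-0.39, adjusted p = 0.0386). In Mef2c f/f and cKO limma, edgeR and DESeq2 called 0 of 12 between CS and SD. In limma 2 and 0 had an unadjusted p under 0.05, against 2111 of 12410 and 391 of 12810 among all genes. With the GC and length trend removed 0 rose and 1 fell in SD, and on CPM as deposited 2 rose and 0 fell. Over all genes 2514 of 12263 and 6907 of 12913 were called in these settings.

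Of 12 clock genes, 11 were tested, and 3 rose and 3 fell from WT CS to SD, near the 45.1% of all genes called. Clock, whose transcript CIRBP binds, ran from 213 to 375 rescaled CPM in WT CS and from 161 to 211 in WT SD, with a log2 fold change of -0.51 (adjusted p = 0.00544, limma). Npas2 (-0.42) and Arntl (-0.34), which encode other activators of the clock, fell with it, and Per1 (0.61), Per2 (0.57) and the output factor gene Tef (0.43) rose. With the GC and length trend removed 1 rose and 2 fell, and on CPM as deposited 5 rose and 0 fell. Over all genes 2514 of 12263 and 6907 of 12913 were called in these settings. In WT RS limma and edgeR called 0 of 11 and DESeq2 called 1. Over all genes limma called 2232, edgeR 1623 and DESeq2 3420 of 12752. In limma 5 of the 11 had an unadjusted p under 0.05, near the share of all genes at that level (5913 of 12752). Clock had -0.38 (adjusted p = 0.051, limma).

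In Mef2c f/f and cKO limma and edgeR called 0 of 11 clock genes between CS and SD and DESeq2 1 in each. In limma 1 in each had an unadjusted p under 0.05, against 2111 of 12410 and 391 of 12810 among all genes. Clock had log2 fold changes from CS to SD of 0.18 (adjusted p = 0.295) in Mef2c f/f and 0.09 (adjusted p = 0.998) in cKO, and its response differed between Mef2c f/f and WT by 0.68 (adjusted p = 0.0269, limma). Npas2 and Arntl were lower in cKO than in Mef2c f/f under CS (-0.51 and -0.52, adjusted p = 0.0467 and 0.0263). Nr1d1 and Nr1d2, which encode repressors of the clock, were lower in deprived cKO than in deprived Mef2c f/f mice (-0.47 and -0.56, adjusted p = 0.00575 for both, limma).

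**Figure D5:**
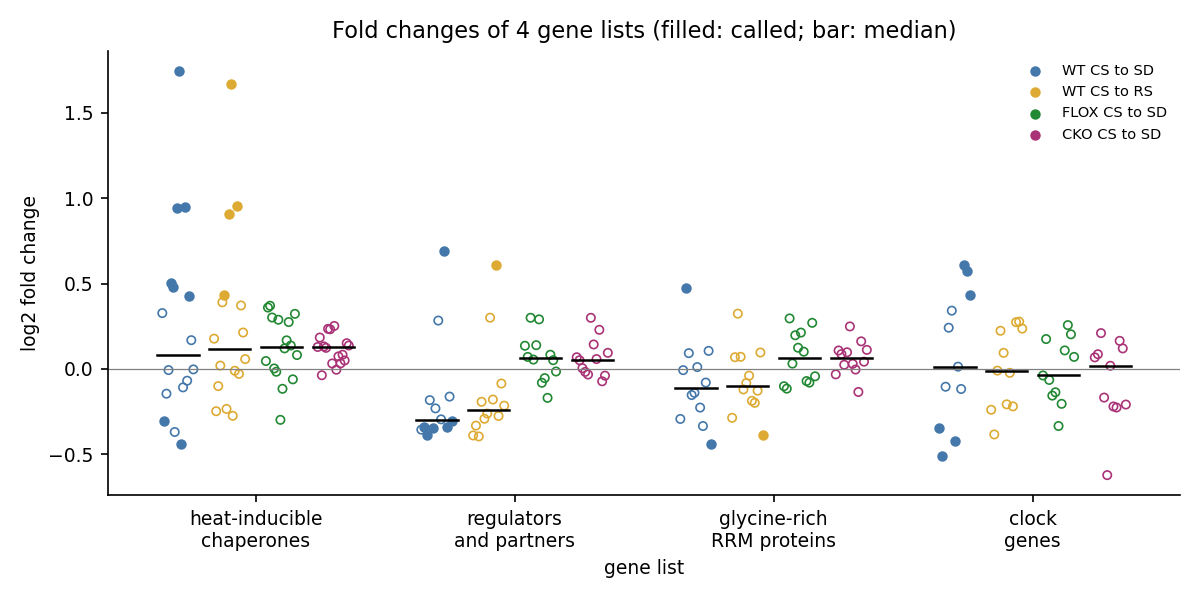
Log2 fold changes of the genes of 4 lists in 4 comparisons; each point is a gene, filled where called, and black bars are list medians. In WT CS to SD the list medians were 0.08, -0.30, -0.11 and 0.01 from left to right, and no gene of any list was called by limma in Mef2c f/f (FLOX) or cKO (CKO).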

How the data were processed

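Frontal cortex RNA of 33 mice, a library each, was extracted with TRIzol and RNeasy, poly(A)-selected and sequenced by the authors as stranded paired-end reads. Per the methods, the authors ran Trimmomatic, mapped the reads on mm10 by STAR, took unique alignments per gene with HTSeq and deposited edgeR CPM; versions and annotation are not given in the sources used here. Dividing each library's CPM by its smallest value gave whole reads (100% of 711645 values within 0.01).

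Rescaled CPM are CPM over a median-of-ratios factor from 11570 genes, and log2 was taken after adding 0.5. Fold changes are on this scale. Genes that reached 1 CPM in every replicate of a compared group were fitted with limma 3.58.1 (R 4.3.3, trended eBayes) on the compared groups alone, with Benjamini-Hochberg adjustment over all genes tested. Calls needed adjusted p of at most 0.05 and, except in interactions, a log2 change of at least 0.3. Ratios, neighbouring levels and correlations had exact permutation tests (Python 3.11.15, SciPy 1.17.1 for ranks). The limma procedure was tested on simulated data. Alternatives included edgeR 4.0.16 and DESeq2 1.42.0 on recovered reads, and removal of a natural-spline trend on GC content and length of the longest GENCODE transcript. The GC slopes, the split by library number, the trend-removed ratios and the permutation tests of response differences were added after the data were seen.

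Replicates are separate mice. Counting error is small, and p-values measure the spread between libraries. With a single library per mouse, this spread does not separate mice from library preparation. Members, gene lists and tests were chosen with earlier results of these data known. Named genes were the pair, Mef2c, called genes of 4 lists, Clock, Hspa1a, Hspa1b and Hsf1, the nearest 2 genes on each side if listed, and the 5 genes most like each member. A called gene of a list is not reported here. Of the nearest genes, 1600002K03Rik, Gm6787 and Rbm3os were not analysed here. No column was left unmapped.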

Additional observations from a re-analysis of the deposited data

Results flagged for a closer look

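Rbm3 in WT SD replicate 2 was 28.3 rescaled CPM, far below the other 6 libraries of its group (42.8 to 53.1). The gap to the nearest was 0.583 of the range of the group, above the critical value of 0.568. In all, 12 groups of values with 4 to 7 samples were checked, and chance flags about 1 in 20. The same library had the lowest log2 ratio of Rbm3 to Cirbp of the 33 (-0.46). Without it the log2 fold change of Rbm3 from WT CS to SD was -0.35 (adjusted p = 0.0187, limma), and the gene kept its call.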

How the results depend on the processing

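Values are log2 changes. On CPM as deposited, which moved the median change of all genes from WT CS to SD from 0.04 to 0.30, Cirbp was called in SD (0.63) and Rbm3 was not (-0.18). Rbm3 also lost its RS call there (-0.27), after quantile normalization (-0.46), with no filter (-0.46) and in edgeR (-0.43). Cirbp in SD against RS became -0.0060 on CPM as deposited and -0.020 with array quality weights, and the Mef2c f/f minus WT difference of Cirbp was called (-0.99). Array weights called Cirbp in WT SD (0.44), in Mef2c f/f SD (-0.42) and in the difference from WT (-0.86), called Rbm3 in cKO SD (-0.50), lost Rbm3 in RS (-0.29), and turned Rbm3 in SD to RS (0.035) and in Mef2c f/f to cKO under CS (0.068). The GC and length trend, once removed, turned Cirbp in WT SD (-0.017) and Rbm3 in the Mef2c f/f minus WT difference (-0.015), lost Rbm3 in SD (-0.16) and RS (-0.24), and left ratio changes of -0.14 in WT SD and -0.10 between the deprived Mef2c f/f and cKO groups. Rbm3 from SD to RS was 0.0092 in edgeR and 0.019 in DESeq2. Cirbp in Mef2c f/f SD (-0.37) was called by DESeq2, and the exact test gave an unadjusted p under 0.05. In all groups in one fit, Cirbp was called in RS (0.43) and Rbm3 in deprived cKO was not (-0.40), nor could it be by the exact test (-0.40). The library number term called Cirbp in RS (0.39), where 3598 of 12752 genes were called. The cause of these changes was not tested.

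With the replicate block, Rbm3 in WT SD was -0.59 and lost its call (adjusted p = 0.0522, limma), Cirbp in WT RS was 0.35 and was called (adjusted p = 0.0366), and Rbm3 from SD to RS was 0.061. Genes called went from 5826 to 287 in WT SD and from 2232 to 4279 in WT RS, where Rbm3 kept its call (-0.54, adjusted p = 0.00834, limma). Same-numbered libraries correlated at 0.65, -0.30, 0.16, -0.01 and 0.11 in WT CS and SD. In WT CS and RS they correlated at 0.06, 0.66, 0.05, 0.42, 0.47 and 0.37. No comparison with 3 or more pairs had all above 0.1, and no label calls the numbers pairs. These mixed values cannot decide whether the numbers pair the mice, so the block is given only as an alternative. Mef2c f/f and cKO shared no numbers, so no block was fitted between them.

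Leaving out 1 library gave, for Cirbp and then Rbm3, 0.20 to 0.44 and -0.50 to -0.35 (WT CS to SD), 0.28 to 0.51 and -0.54 to -0.39 (CS to RS), -0.0022 to 0.15 and -0.11 to 0.059 (SD to RS), -0.47 to -0.27 and -0.15 to 0.029 (Mef2c f/f CS to SD), -0.62 to -0.18 and -0.59 to -0.24 (cKO CS to SD), -0.34 to 0.11 and -0.24 to 0.12 (genotypes in CS), -0.24 to -0.04 and -0.50 to -0.33 (in SD), -0.25 to 0.20 and -0.52 to -0.16 (cKO minus Mef2c f/f), and -0.83 to -0.57 and 0.27 to 0.48 (Mef2c f/f minus WT). For the ratio it gave -0.94 to -0.62, -1.02 to -0.71, -0.20 to -0.01, 0.24 to 0.35, -0.067 to 0.10, -0.036 to 0.10 and -0.34 to -0.17 in the first 7 comparisons in the same order.

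Counts of called genes moved widely, from 287 to 6907 in WT CS to SD (5826 as reported), 0 to 4709 in CS to RS (2232), 0 to 100 in SD to RS (3), 0 to 1750 in Mef2c f/f (5), 1 to 291 in cKO (3), 171 to 3402 and 690 to 2972 between genotypes in CS and SD (973 and 1927), 1 to 315 in cKO minus Mef2c f/f (1) and 23 to 7486 in Mef2c f/f minus WT (1983). Higher and lower calls were 3183 and 2643 in WT SD, 6106 and 801 on CPM as deposited, and 1184 and 1048 against 2350 and 315 in RS. Between genotypes they were 402 and 571 against 882 and 346 in CS and 1162 and 765 against 1694 and 492 in SD, and for Mef2c f/f minus WT 1225 and 758 against 507 and 2919.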
